A study of Mus musculus with 2 samples.

Results

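Fibronectin and its integrin receptors were examined as 10 genes, Fn1 and the integrin subunit genes Itga5, Itgav, Itga1, Itga8, Itga11, Itgb1, Itgb3, Itgb5 and Itgb8, taken by symbol from a table of 24532 genes. All 10 were found, each in 1 row. The cells were cardiac myofibroblasts of C57BL/6 mice, isolated 3 days after myocardial infarction, and both groups carried that injury and the same transfection reagent. One group received 12.5 nM of a control siRNA (siControl) and the other 12.5 nM of an siRNA against Bcat1, the cytosolic branched-chain aminotransferase gene (siBcat1), each for 72 hours. A single siRNA against Bcat1 was used, and each group was 1 library, so no test was possible, no spread between cultures is known, and differences are given by size alone.

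Fibronectin is a secreted glycoprotein that cells assemble into fibrils at their surface, and it forms much of the early matrix of a healing infarct. Integrins are receptors made of 1 alpha and 1 beta subunit, which bind matrix outside the cell and connect to actin inside. The pairs alpha 5 beta 1, alpha v with beta 1, beta 3, beta 5 or beta 8, and alpha 8 beta 1 recognise a short arginine-glycine-aspartate motif (RGD) in their ligands, whereas alpha 1 beta 1 and alpha 11 beta 1 bind collagens, so that not every member is a receptor of fibronectin itself. Integrins with alpha v also bind the RGD motif of the latent TGF-beta complex and can release the active growth factor from it.

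The library totals were 127309329 counts in siControl and 104581819 in siBcat1. Levels are given as CPM, counts scaled to a common library size, in which 1 CPM was 131 counts in siControl and 101 in siBcat1, or as the deposited TPM, which is also divided by transcript length and is the scale used to compare genes with each other. A log2 fold compares the scaled counts of siBcat1 with those of siControl, and is negative where siBcat1 is lower. Values in brackets are exact (Clopper-Pearson) 95% intervals of counting error only, and as reads amplified by PCR are not independent, they are too narrow to that extent. Counts of Bcat1 itself were 8891 in siControl against 99 in siBcat1, and its log2 fold was -6.11 [-6.41 to -5.83]. In these bulk samples fewer cells of a type and less RNA per cell cannot be told apart.

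Each of the 10 genes was lower with siBcat1 than with siControl in scaled counts, and the members differed widely in how much. The beta subunit gene Itgb8, the collagen receptor gene Itga11 and Fn1 itself were lowest, while Itga5, the alpha chain of the main fibronectin receptor, differed little. Over both libraries 9 members reached a mean of 5 CPM. Of these, 4 were at least 2-fold lower, 0 were at least 2-fold higher and 5 lay between. Among all 9935 genes with that mean, 13.0% were at least 2-fold lower and 5.58% at least 2-fold higher. The median log2 fold was -0.94 for the 9 members and -0.06 for all 9935 genes. Itga8 lay under the minimum, and with it the median of the 10 genes was -1.19. The minimum is a mean, so a gene can pass it through 1 library alone. Itgb8 did so, with 27.5 CPM in siControl and 3.83 CPM in siBcat1.

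Transcript length has to be read beside these folds. Over 9887 genes the log2 fold and length had a Spearman correlation of -0.656, given as a description since genes of the same libraries are not independent, and the members are long, with a median of 5784 bases against 2970 bases for all genes tested. When a smooth (lowess) curve of fold on length was subtracted, giving a length-adjusted fold, 3 of the 9 members were at least 2-fold lower (Itga11, Itgb8 and Fn1) and 0 at least 2-fold higher, against 5.32% and 4.12% of all genes. The adjusted median of the members was -0.74, and Itga5, Itgav and Itga1 lay above 0 after adjustment. The part of length in the result was not tested. On the log2(TPM + 1) scale the median fold of all genes tested shifted by -0.41 relative to scaled counts. On that scale Itgb8 had -2.79 against -2.84 and Itga11 -2.37 against -2.45, but their siBcat1 levels were only 1.80 and 1.62 TPM. With a pseudocount of 0.1 in place of 1 they had -3.28 and -2.88, so their shift depends on the pseudocount.

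**Figure D1:**
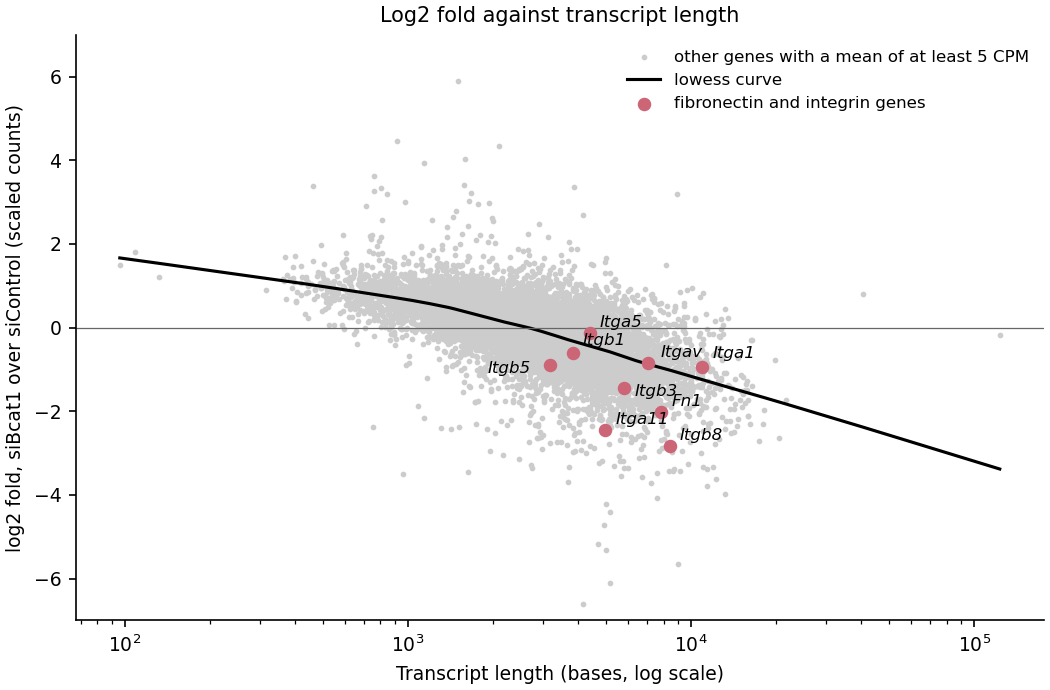
Log2 fold (siBcat1 over siControl, scaled counts) against transcript length in bases on a log axis, for genes whose mean reached 5 CPM; red points are the 9 measured fibronectin and integrin genes and the line is the lowess curve. Itgb8, Itga11 and Fn1 lie at least 1 log2 unit under the curve, Itgav lies on it, and Itga5 and Itga1 lie above it.

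Fn1 (Entrez gene 14268; GRCm38 chromosome 1, 71585520 to 71653200, minus strand) encodes fibronectin and had 1571630 counts in siControl and 299305 in siBcat1. That was 1.23% of all counts in siControl (Wilson 95% interval 1.23 to 1.24) and 0.286% in siBcat1 (0.285 to 0.287), and by counts the gene moved from rank 2 to rank 28. Its level was 3089 TPM in siControl and 539 TPM in siBcat1, and by TPM, which allows for length, it had rank 34 and rank 258. The log2 fold was -2.02 [-2.02 to -2.01], 4.05 times lower, and 220 of the 9935 genes had a lower fold. With a mean transcript length of 7843 bases, Fn1 had a length-adjusted fold of -1.06, and 458 of the 9887 genes had a lower adjusted fold. The fold was -1.89 under upper-quartile factors, -2.52 on the log2(TPM + 1) scale and -0.94 with trends of length and GC content removed. The table merges 7 RefSeq transcripts of Fn1, so the splice forms with and without the extra domains were not separated.

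The part of fibronectin that most of these receptors bind is shown because it links the ligand to the receptors described here. In the longest coding transcript of Fn1 in GENCODE M21, with 7431 coding bases, RGD codons occur at 2 places, at codon 1614 in exon 30 (chr1:71606731-71606769, minus strand) and at codon 2181 in exon 40 (chr1:71597428-71597466, minus strand). Codons are counted from 1 at the start codon, sequences are the coding strand, and capitals mark the RGD codons. The first is the site in the run arginine-glycine-aspartate-serine known as the cell-binding site. For comparison, the same codons are given for fibrillin 1 (Fbn1, codon 1543, exon 38, chr2:125345958-125345996, minus strand), the TGF-beta 3 precursor (Tgfb3, codon 261, exon 5, chr12:86062150-86062188, minus strand) and osteopontin (Spp1, codon 145, exon 7, chr5:104439466-104439504, plus strand), other ligands whose values are given further on.
Fn1 codon 1614: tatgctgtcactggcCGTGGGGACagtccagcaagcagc
Fn1 codon 2181: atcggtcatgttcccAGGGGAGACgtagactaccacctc
Fbn1: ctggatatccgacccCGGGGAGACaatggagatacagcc
Tgfb3: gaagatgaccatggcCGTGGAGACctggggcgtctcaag
Spp1: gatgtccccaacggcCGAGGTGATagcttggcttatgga

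Among genes of all levels, those nearest to Fn1 in log2(TPM + 1) over both libraries were Sparc, Serpinh1 and Col3a1, at Euclidean distances of 0.201, 0.666 and 0.868. Sparc, a matricellular protein gene, had 2701 TPM in siControl and 560 TPM in siBcat1, with a log2 fold of -1.76. Its transcript, at 2208 bases, is shorter than that of Fn1, and its length-adjusted fold was -1.89. Likeness over 2 libraries says only that both levels were close.

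Itgb1 (gene 16412; chromosome 8, 128685654 to 128733200, plus strand) encodes beta 1, the partner of alpha 5, alpha 1, alpha 8 and alpha 11 and of some alpha v. It was the most abundant integrin gene in both libraries, with 826 TPM in siControl and 380 TPM in siBcat1. Its counts were 219329 and 110583, from 1669 to 1092 CPM, a log2 fold of -0.61 [-0.62 to -0.60]. Of the 4 beta members it was the least lowered, with a length-adjusted fold of -0.29. Its nearest genes in level were Lox, Txndc5 and Ddb1, at distances of 0.0485, 0.158 and 0.160. Lox, the gene of lysyl oxidase, had 799 and 378 TPM.

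Itgb5 (gene 16419; chromosome 16, 33829665 to 33949338, plus strand) encodes beta 5, which pairs with alpha v, and was the second beta gene in level, with 411 TPM in siControl and 156 TPM in siBcat1. It had 85337 and 35501 counts and a log2 fold of -0.89 [-0.91 to -0.87]. At 3169 bases it has the shortest transcript of the members, and adjustment for length moved it little, to -0.74. Itgb3 (gene 16416; chromosome 11, 104608000 to 104670476, plus strand), the beta chain of the vitronectin receptor, was far less abundant, with 21.3 TPM in siControl and 5.54 TPM in siBcat1. It had 7804 and 2220 counts, from 59.4 to 21.9 CPM, and was 2.71 times lower, with a log2 fold of -1.44 [-1.51 to -1.37]. Its length-adjusted fold was also -0.74, so that Itgb3 and Itgb5 differed in scaled counts and hardly after adjustment.

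Itgb8 (gene 320910; chromosome 12, 119158022 to 119238802, minus strand) encodes beta 8, which pairs with alpha v and is best known for activating latent TGF-beta. It had 3608 counts in siControl and 388 in siBcat1, from 27.5 to 3.83 CPM. It was 7.17 times lower, the lowest fold of the 10 genes, at -2.84 [-3.00 to -2.69], and 58 of 9935 genes had a lower one. The length-adjusted fold was -1.82 with the annotated transcript of 8403 bases. The deposited counts and TPM imply a length of 2846 bases for this gene, and with lengths implied in that way the adjusted fold was -2.77. The 4 beta genes were thus ordered Itgb8, Itgb3, Itgb5 and Itgb1 from the lowest fold to the highest in scaled counts, and the 2 rarest had the lowest folds.

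Itga5 (gene 16402; chromosome 15, 103344286 to 103366763, minus strand) encodes alpha 5, the fibronectin-specific chain that pairs with beta 1. It had 29674 counts in siControl and 20755 in siBcat1, from 226 to 205 CPM, which is 90.7% of the control level. The log2 fold of -0.14 [-0.17 to -0.11] was the smallest in size of the 10. It was -0.01 under upper-quartile factors and -0.64 on the log2(TPM + 1) scale, and it was above 0 when trends were removed, at 0.30 for length and 0.44 for length and GC content, so that Itga5 has no firm direction.

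Itgav (gene 16410; chromosome 2, 83724397 to 83806916, plus strand) encodes alpha v, the shared partner of beta 3, beta 5 and beta 8. It had 74683 and 31767 counts, from 568 to 314 CPM, a log2 fold of -0.86 [-0.88 to -0.84]. With a transcript of 7054 bases the length-adjusted fold was 0.02, and with length and GC trends removed it was -0.16. Itga8 (gene 241226; chromosome 2, 12106632 to 12301922, minus strand), the alpha chain that binds nephronectin and fibronectin, was the rarest member, with 905 and 247 counts, or 6.89 and 2.44 CPM. Its log2 fold was -1.50 [-1.71 to -1.29], and -0.80 against the length curve, and it is not in the counts of members measured.

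The 2 collagen-binding alpha genes parted. Itga11 (gene 319480; chromosome 9, 62677826 to 62783982, plus strand), a receptor chain of fibroblasts for fibrillar collagen, had 3936 counts in siControl and 556 in siBcat1, from 29.9 to 5.49 CPM. It was 5.46 times lower, with a log2 fold of -2.45 [-2.58 to -2.32], and 104 of 9935 genes had a lower one. Its length-adjusted fold was -1.90 with the annotated length and -1.99 with the implied length, against -1.82 and -2.77 for Itgb8. Itga1 (gene 109700; chromosome 13, 114953096 to 115101964, minus strand), the chain of the alpha 1 beta 1 receptor that also binds basement membrane collagen, had 5477 and 2205 counts, from 41.7 to 21.8 CPM. Its log2 fold was -0.94 [-1.01 to -0.87], with opposite signs after adjustment by annotated length (10967 bases, 0.31) and by implied length (5779 bases, -0.27). The ratio of Itga11 to Itga1, which does not depend on library scaling, was 2.85 times lower in siBcat1, and per length it went from 0.871 to 0.305 in TPM. By counts per annotated length, Itga11 and Itga1 were 3.55% and 2.24% of the sum of 18 alpha genes in siControl. In siBcat1 they were 0.999% and 1.79%. Which of the 2 was higher in siControl thus depends on the length used.

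**Figure D2:**
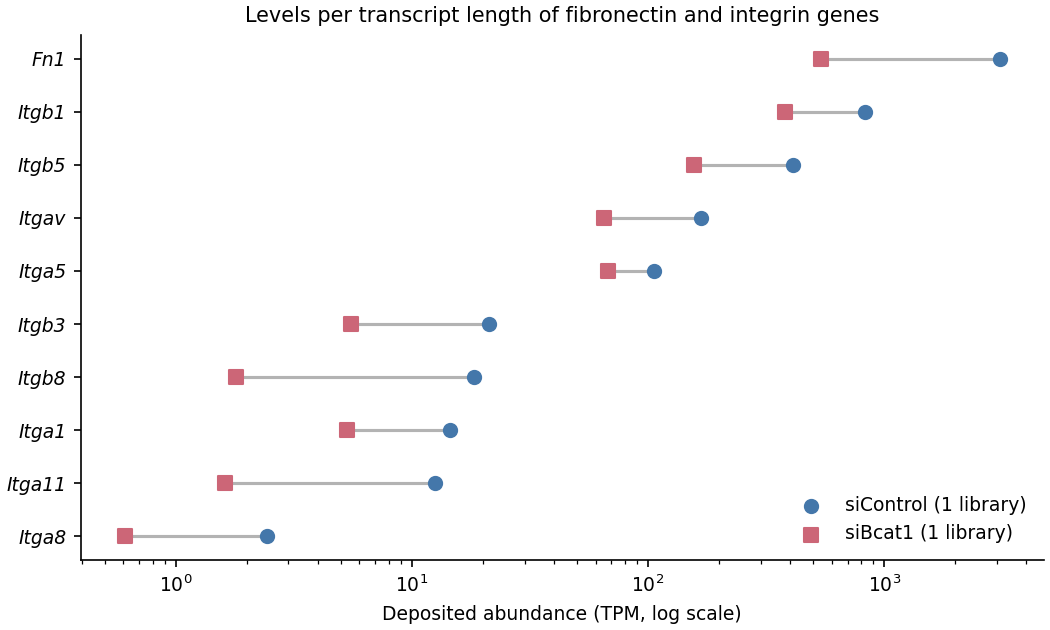
Deposited TPM on a log axis for the 10 genes in the siControl library (blue circles) and the siBcat1 library (red squares), ordered by the siControl value; a line joins the values of a gene. All 10 lie lower in siBcat1 on this scale, with the longest lines for Itgb8 and Itga11 and the shortest for Itga5.

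The make-up of the receptor pool was compared per transcript length. The summed level of the 18 alpha genes was 346 TPM in siControl and 158 TPM in siBcat1, and that of the 9 beta genes was 1277 and 545 TPM. Both sums carry the downward shift of the TPM scale and were not computed from scaled counts. Genes passing the minimum of each scale had a median of -0.47 on log2(TPM + 1) and -0.06 in scaled counts. In scaled counts Itgb1, Itgb5, Itgav and Itga5 were at 65.4%, 54.0%, 55.2% and 90.7% of siControl. Itga8, Itga11, Itgb3 and Itgb8 were at least 2-fold lower in scaled counts. The members made up 87.5% of the alpha sum in siControl and 89.1% in siBcat1, and over 99% of the beta sum in both (99.95% and 99.85%). Itgav was the leading alpha gene in siControl, with 48.3% of the alpha sum against 30.7% for Itga5. In siBcat1 the pair stood close, with 41.2% for Itgav and 43.1% for Itga5. Itga11 went from 3.64% to 1.03%. Among beta genes, Itgb1 had 64.7% in siControl and 69.8% in siBcat1, and Itgb5 32.2% and 28.7%. Itgb3 had 1.67% and 1.02%. Counts divided by annotated length gave 30.4% and 42.3% for Itga5 and 47.5% and 40.2% for Itgav, which is the same order in each library. The count ratio of Itga5 to Itgav was 1.64 times higher in siBcat1 (log2 change 0.72 [0.69 to 0.75], interval from the usual variance of a log odds ratio, counting error only). After length adjustment that change was 0.28.

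**Figure D3:**
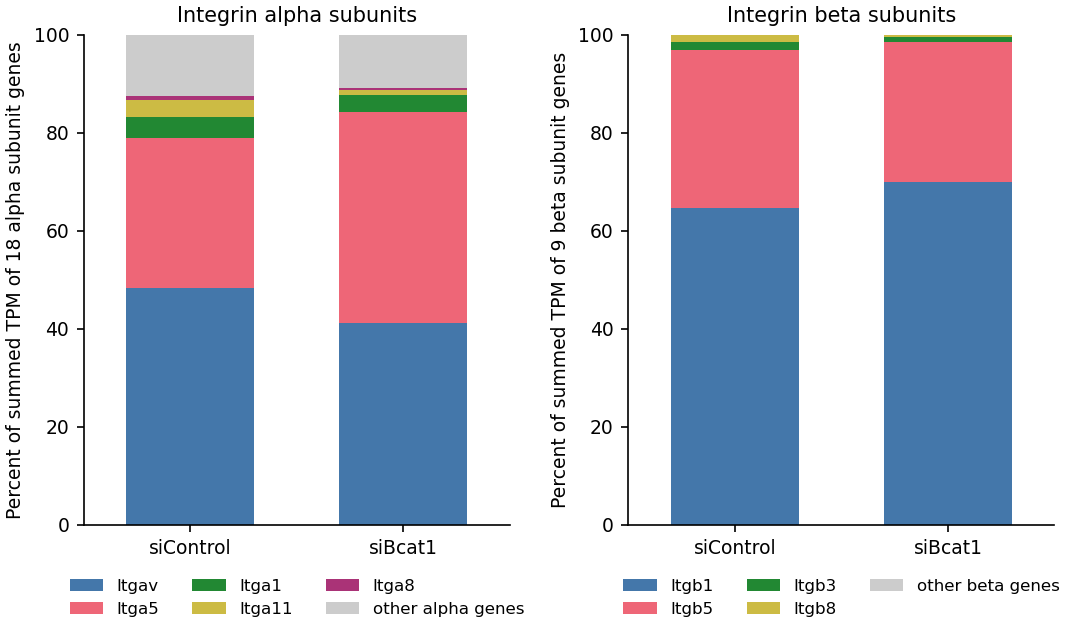
Percent of the summed TPM of 18 alpha (left) and 9 beta (right) integrin genes held by each gene, as stacked bars for the siControl and the siBcat1 library; grey is all other genes of the pool. The Itga5 segment is 30.7% of the alpha bar in siControl and 43.1% in siBcat1, and Itgb1 is the largest beta segment in both.

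From the lowest fold to the highest, the order in scaled counts was Itgb8, Itga11, Fn1, Itga8, Itgb3, Itga1, Itgb5, Itgav, Itgb1 and Itga5. Neighbours in that order were compared by the change in their count ratio, in which the scaling of the libraries cancels. Itga8 and Itgb3 did not differ beyond counting error, at -0.06 [-0.27 to 0.15], and neither did Itga1 and Itgb5, at -0.05 [-0.12 to 0.03]. Itgb5 and Itgav differed by -0.03 [-0.06 to -0.01], which is small. The other 6 pairs of neighbours differed by 0.25 to 0.52 on the log2 scale, each with an interval that left out 0. After length adjustment the order of the 9 measured members was Itga11, Itgb8, Fn1, Itgb3, Itgb5, Itgb1, Itgav, Itga5 and Itga1. With implied in place of annotated lengths it was Itgb8, Itga11, Fn1, Itgb3, Itgb5, Itga1, Itgb1, Itgav and Itga5, so the places of Itgb8 and Itga1 depend on the length used. Counting error is the only error in these intervals, and how such differences compare with those between cultures is not known.

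Set against its receptor chains, Fn1 was lower than each of them except Itga11 and Itgb8. The ratio of Fn1 to Itgb1 was 3.74 in TPM in siControl and 1.42 in siBcat1, and the count ratio changed by -1.40 [-1.42 to -1.39], or by -0.76 after length adjustment. Against Itga5 the count ratio changed by -1.88 [-1.90 to -1.85], 3.67 times lower, or by -1.35 after adjustment. In TPM, Fn1 stood 29.1 times above Itga5 in siControl and 7.94 times above it in siBcat1.

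**Figure D4:**
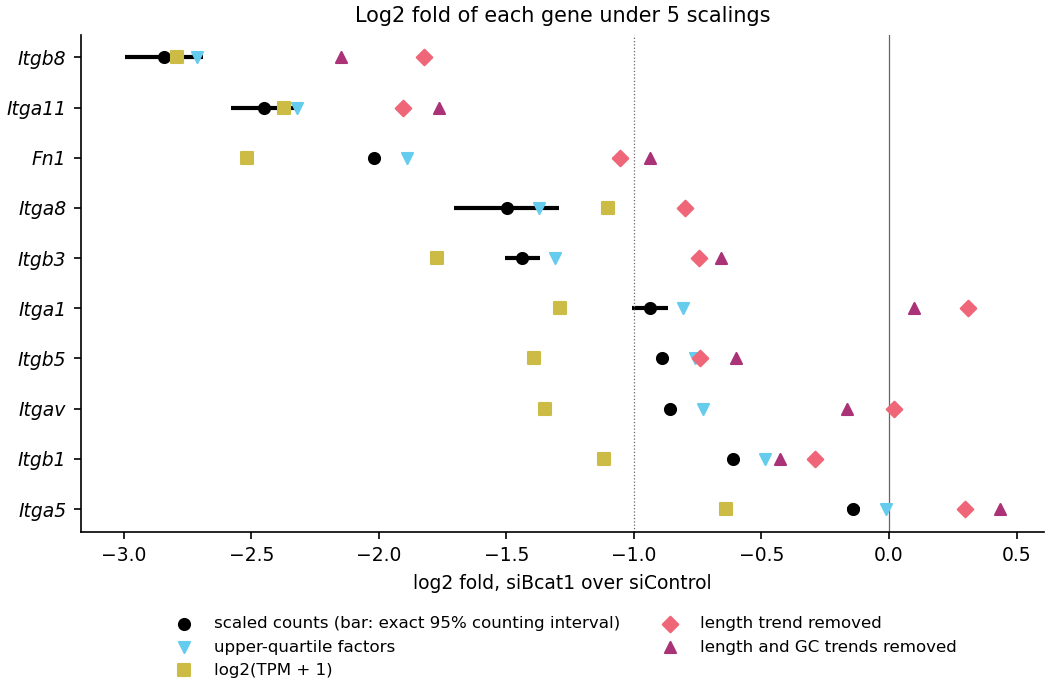
Log2 fold (siBcat1 over siControl) of each of the 10 genes under 5 scalings, given by the symbols; black bars are exact 95% counting intervals of the scaled counts and the dotted line is 2-fold lower. Itgb8 and Itga11 lie beyond 2-fold lower under all 5, while Itga5 and Itga1 lie above 0 with trends removed and Itgav lies at 0.02 with the length trend removed. Itga8, under the minimum, has no symbol for length and GC trends removed.

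The other integrin genes were mostly rare. Of 13 other alpha genes 4 passed the minimum, and of 5 other beta genes none did. Of those 4, 2 were at least 2-fold lower and 0 at least 2-fold higher, against 13.0% and 5.58% of all 9935 genes. Itga4, which encodes the alpha chain that binds the variable region of fibronectin and the adhesion molecule VCAM1, was lowest, with 34.5 CPM in the control library and 3.58 CPM with siBcat1, and its log2 fold was -3.27 [-3.42 to -3.11] (length-adjusted -2.12). This was lower than that of any of the 10 members, and Itga4 passed the minimum through the control library alone. Itga3, a laminin receptor chain, had -1.09 [-1.20 to -0.99] and -0.59 after adjustment. The laminin receptor gene Itga6 had -0.59 and Itga9, which binds tenascin-C and a spliced segment of fibronectin, had -0.47 (length-adjusted -0.18 and -0.01). Among integrin genes of white blood cells and platelets, Itgb2 and Itga2b lay under the minimum. Itgb2 had 0.388 CPM in siControl and 1.32 CPM in siBcat1, and Itga2b had 1.27 and 3.24 CPM, both chosen for mention after their values were seen.

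The other listed ligands of RGD-binding integrins went in both directions. Of 13 such genes, 12 had a matching coding sequence, and 11 of these held RGD codons. Tnc held none and Cyr61 was not matched, and both are among the 10 that passed the minimum, at -0.86 and 0.32. Of these 10, 4 were lower by 2-fold or more, 5 lay between and 1 was higher by 2-fold or more, with a median of -0.89 (length-adjusted -0.21). The shares of all genes tested were 13.0% lower and 5.58% higher. Fbn2, at 25.7 CPM in siControl and 2.55 CPM in siBcat1, and Npnt passed the minimum through siControl alone. At a minimum of 20 CPM, 2 ligand genes were lower and 1 was higher by 2-fold or more. The share of all genes at that minimum is not given. Fbn2 and Fbn1, the fibrillin genes, had -3.34 and -1.92 (length-adjusted -2.08 and -0.76). Npnt, which encodes nephronectin, the ligand of alpha 8 beta 1, had 14.9 CPM in the control library and 4.90 CPM with siBcat1, and its log2 fold was -1.61 [-1.75 to -1.46] (length-adjusted -1.49). Tgfb3 had -1.14 [-1.18 to -1.11] (length-adjusted -0.93). Spp1, the osteopontin gene, went the other way, from 15.6 to 96.9 CPM, a log2 fold of 2.64 [2.57 to 2.71] (length-adjusted 2.18). Vtn, the vitronectin gene, named after its value was seen, had 0 counts in both libraries. A count of 0 allows up to 3 counts, or 0.0228 CPM in the control library and 0.0296 CPM in the other.

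Of 8 listed collagen genes, whose chains form ligands of alpha 1 or alpha 11, all passed the minimum. At least 2-fold lower were 5, and 0 were higher, against 13.0% and 5.58% of all genes tested. Col5a1, Col1a1, Col4a2, Col1a2 and Col4a1 had -1.38, -1.35, -1.31, -1.28 and -1.24, with a list median of -1.26. After length adjustment none of the 8 was at least 2-fold lower, against 5.32% of all genes, and the median was -0.39. Itga11 lay below each of these ligands before and after adjustment.

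Genes of fibronectin assembly and binding partners were 3 of 10 at least 2-fold lower and 1 of 10 at least 2-fold higher, with a median of -0.74 (length-adjusted -0.18). Among all genes tested 13.0% were that much lower and 5.58% that much higher. Tgm2, a transglutaminase that crosslinks fibronectin and binds it with integrins at the surface, was lowest, from 96.0 to 23.5 CPM, with -2.03 [-2.10 to -1.97] (length-adjusted -1.76). Tns1, the tensin gene, had -1.65 and Postn, the periostin gene, -1.19 (length-adjusted -0.48 and -1.04). Thbs1, the thrombospondin 1 gene, had -0.92 (length-adjusted -0.21). Plaur, the urokinase receptor gene, was higher at 1.02 [0.94 to 1.09], with 0.60 after adjustment. Of 5 genes for latent TGF-beta, which alpha v integrins bind, only Tgfb3 was at least 2-fold lower in scaled counts and none after adjustment. Ltbp3, Lrrc32, Tgfb1 and Ltbp1 had -0.36, 0.18, -0.06 and -0.02 (length-adjusted 0.23, 0.50, -0.20 and 0.69). The list median was -0.06, and 0.23 after adjustment, so this list has no firm direction.

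Genes for the proteins that activate integrins and tie them to actin were less lowered than the receptors in median. Of 26 listed, 23 passed the minimum, and 6 were at least 2-fold lower and 0 higher, against 13.0% and 5.58% of all genes tested. The median was -0.39, and 20 of the 23 lay below 0. After length adjustment the median was -0.19, with 2 lower (Tns3 and Rsu1), against 5.32% of all genes. The lowest were tensin and talin genes, which encode long proteins that bind integrin beta tails. Tns3 had -2.09 [-2.12 to -2.05], Tln2 -1.95, Tns1 -1.65, Tns2 -1.20 and Tln1 -1.19, and length-adjusted these had -1.16, -0.61, -0.48, -0.69 and -0.18. Other partners, named after their values were seen, varied. Vcl, Pxn and Rsu1 had -1.05, -0.67 and -0.66 (length-adjusted -0.45, -0.52 and -1.07). Fermt2, the kindlin 2 gene, had -0.38, Ilk, the integrin-linked kinase gene, -0.13 and Ptk2, the focal adhesion kinase gene, -0.10. Upper-quartile factors put Fermt2, Ilk and Ptk2 at -0.25, 0.00 and 0.03, and length adjustment at -0.19, -0.42 and 0.35. Ilk and Ptk2 thus have no firm direction.

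**Figure D5:**
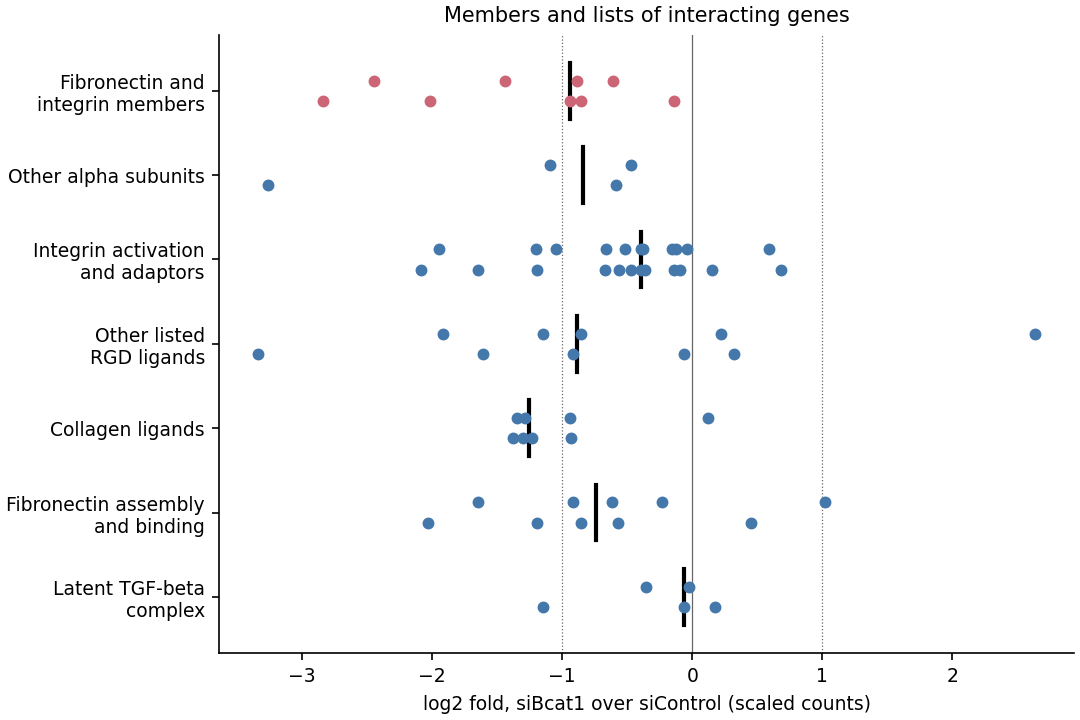
Log2 fold (siBcat1 over siControl, scaled counts) of each gene whose mean reached 5 CPM, as a point, in the fibronectin and integrin members (red) and in 6 lists of interacting genes (blue); vertical bars are medians and dotted lines are 2-fold. The member median of -0.94 lies between that of the collagen ligands (-1.26) and that of the integrin adaptors (-0.39), and Spp1 is the point at 2.64.

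Sequence upstream of the gene start, 250 bases in RefSeq's GRCm38.p6 models, was matched for 8 of the 10 members, without Fn1 and Itgb3. Motifs were searched on both strands: the GC box GGGCGG, the CCAAT box CCAAT, the TATA box TATAAA, the AP-1 motif TGANTCA, the TEAD motif GGAATG, the C/EBP motif TTGCNNAA and the CArG box of serum response factor. Over 32851 such windows these were found in 32.7%, 33.8%, 12.4%, 6.75%, 12.6%, 9.56% and 1.47%, in the same order. Of the 8 members, 3 held a GC box, 1 a CCAAT box, 1 a TEAD motif and none any of the others. The GC boxes were in Itga5 (2 matches), Itgb5 (3) and Itgb1 (1), and the CCAAT box was in Itgb8. A match is a match of letters only, and its absence says nothing about a factor. The windows of Itga5 (chr15:103366792-103367041, minus strand) and Itgb8 (chr12:119238277-119238526, minus strand) are shown as those of the members with the highest and the lowest fold, and that of Itgb1 (chr8:128685404-128685653, plus strand) as the most abundant integrin gene. Each is written towards the gene, and capitals mark the motif matches.
Itga5: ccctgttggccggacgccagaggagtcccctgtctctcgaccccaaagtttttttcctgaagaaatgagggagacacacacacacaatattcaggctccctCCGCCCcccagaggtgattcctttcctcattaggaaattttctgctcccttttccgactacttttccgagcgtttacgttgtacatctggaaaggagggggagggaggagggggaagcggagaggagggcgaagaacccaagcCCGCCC
Itgb1: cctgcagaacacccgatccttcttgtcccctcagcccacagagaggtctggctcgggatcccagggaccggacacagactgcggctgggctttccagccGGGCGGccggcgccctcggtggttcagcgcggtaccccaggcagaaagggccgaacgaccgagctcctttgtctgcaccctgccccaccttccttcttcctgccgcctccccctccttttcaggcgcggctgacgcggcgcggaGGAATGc
Itgb8: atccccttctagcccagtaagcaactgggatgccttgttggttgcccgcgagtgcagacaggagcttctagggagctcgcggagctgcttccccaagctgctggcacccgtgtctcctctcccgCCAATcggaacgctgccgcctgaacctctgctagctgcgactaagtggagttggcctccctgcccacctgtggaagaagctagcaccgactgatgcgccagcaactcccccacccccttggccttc

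Markers were read for what cells the libraries held, and single markers are named here after their values were seen. All 12 fibroblast and myofibroblast markers passed the minimum. At least 2-fold lower were 4 (Pdgfrb, Col1a1, Col1a2 and Postn) and 1 was higher (S100a4), against 13.0% and 5.58% of all genes tested. After length adjustment 1 was at least 2-fold lower (Postn, -1.04) and 0 at least 2-fold higher (S100a4 had 0.33). The shares of all genes were then 5.32% and 4.12%. Acta2 had 3380 and 3139 CPM. Of 10 macrophage and leukocyte markers, 5 had 0 counts in siControl and 4 in siBcat1, Ptprc and Adgre1 among them in both. Their summed level was 10.7 and 30.1 CPM, of which Lyz2 had 5.46 and 21.3 CPM and Csf1r 2.82 and 2.69 CPM. Of 7 cardiomyocyte markers 4 had 0 counts in each library, including Myh6, and the sum of 46.4 and 10.4 CPM was nearly all Tnnt2. The 6 smooth muscle and pericyte markers summed to 161 and 30.8 CPM, and most of that sum was Mcam, at 152 and 25.6 CPM. The other 5 lay under the minimum and went both ways, with Cspg4 and Myh11 lower at -2.17 and -1.72 and Kcnj8, Abcc9 and Rgs5 higher at 1.77, 0.96 and 0.28. The 7 endothelial markers summed to 48.7 and 51.2 CPM, the 5 platelet markers to 8.88 and 70.6 CPM and the 4 mesothelial markers to 23.5 and 14.2 CPM. Of the platelet markers 2 passed the minimum, both at least 2-fold higher, against 5.58% of all genes tested. Their median was 3.11 (length-adjusted 2.47). The 1 mesothelial marker that passed had -2.14 (length-adjusted -1.89), and the 1 endothelial marker had -0.08 (length-adjusted 0.37). The part of other cell types in the integrin values was not tested.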

How the data were processed

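Messenger RNA of cardiac myofibroblasts was measured in 2 libraries, grouped by the treatment label. Per the labels' protocols, libraries came from a stranded Illumina mRNA kit. The submitters' processing notes list FastQC, Trimmomatic, HISAT2, StringTie and the build mm10, with no version or role. How strand and read pairs were counted is not stated in them. The authors deposited whole-number read counts per gene, not normalized, and TPM values per library.

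Counts were scaled by TMM factors (edgeR 4.0.16, R 4.3.3) of 1.03 for siControl and 0.969 for siBcat1. The 9935 genes whose mean reached 5 CPM were kept, and a gene counted as lower or higher at 2-fold. With 1 library a group no p-value is given. TPM folds used pseudocounts of 1 and 0.1, and their counts and medians took genes with a mean of at least 5 TPM. Lengths (mean over transcripts matched by RefSeq accession) and coordinates, counted from 1, are from GENCODE M21 (GRCm38, the build mm10 names), with a length for 9887 genes; the lowess curve (fraction 0.3, 3 iterations, statsmodels 0.14.6) accounted for 37.9% of the variance of the folds. Itga8, under the minimum, was set against the curve at the nearest length. DESeq2 1.42.0 gave alternative size factors. Promoter windows are RefSeq's (GRCm38.p6).

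Named genes were the members, Bcat1, up to 5 genes of each list with the largest absolute fold, and the 3 genes nearest to Fn1 and to Itgb1. Genes outside this rule were chosen after their values were seen: Itgb2, Itga2b, Fermt2, Ilk, Ptk2, Vcl, Pxn, Rsu1, Tnc, Cyr61, Vtn and single cell type markers. The members, the 8 gene lists and the 7 marker lists were chosen with earlier results of these data known. Interval and trend calculations were tested on simulated data. Python 3.11.15 was run with scipy 1.17.1, numpy 2.4.6, matplotlib 3.10.9 and pandas 2.3.3.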

Additional observations from a re-analysis of the deposited data

How the results depend on the processing

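The count of members at least 2-fold higher was 0 under each of 14 alternatives. The count at least 2-fold lower, 4 of 9, was 8 with TPM at either pseudocount and 8 at a threshold of 1.5-fold. On the log2(TPM + 1) scale the median of all genes with a mean of at least 5 TPM was itself -0.47. The share of all genes past these other cuts is not given, so the rise to 8 has no background beside it. The count was 2 at a minimum of 20 CPM, where Itga11 and Itgb8 no longer pass, and 2 with length and GC trends removed. It was 3 to 5 otherwise. The median of -0.94 was -1.03 with library totals, -0.81 with upper-quartile factors, -1.39 and -1.43 with TPM at pseudocounts of 1 and 0.1, -1.19 at a minimum of 1 CPM and with no minimum, where Itga8 enters, and -0.89 at 20 CPM. It was -0.74 with the length trend removed, -0.72 with the implied length trend removed and -0.60 with length and GC trends removed.

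The sign turned in Itga5 (0.30, 0.29 and 0.44 with the trend on length, on implied length, and on length and GC removed), in Itga1 (0.31 with length and 0.10 with length and GC) and in Itgav (0.019 with length); the cause was not tested. Itga11 and Itgb8 were at least 2-fold lower in each of the 10 alternatives in which they were measured, and Fn1 in 10 of 11, the exception being -0.94 with length and GC trends removed. TPM carries no depth, so its values have no counting interval. No paired analysis was possible because each group has 1 library.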

Other observations

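The length that the deposited counts and TPM imply, scaled so that its median ratio to the annotated lengths was 1, was 7498 bases for Fn1 and 4104 bases for Itgb1, close to the annotated 7843 and 3815 bases. For Itgb8 it was 2846 against 8403 bases and for Itga1 5779 against 10967 bases. The TPM of these latter genes is higher, relative to other integrin genes, than counts per annotated length would give, with 1.44% against 0.50% of the beta sum for Itgb8 and 4.17% against 2.24% of the alpha sum for Itga1 in siControl.

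Splicing factor genes were listed because the extra domains of fibronectin are spliced in or out. Of 5 listed, none was at least 2-fold lower or higher. Srsf3, Srsf5 and Srsf7 had log2 folds of 0.58, 0.56 and 0.22, Srsf1 had 0.18 and Rbfox2 had -0.52. On the log2(TPM + 1) scale the list median was -0.28 against 0.22 in scaled counts. The medians of all genes that passed the minimum on these scales were -0.47 and -0.06, so the list lay above them on both. With length and GC trends removed the list median was -0.009, so the list has no firm direction.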
